A study of Mus musculus with 7 samples.

Results

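Retinoic acid is a vitamin A derivative that patterns the early vertebrate embryo, and its level in each tissue is set by a chain of proteins that carry retinol to cells, oxidise it to the acid, bind it inside the cell, break it down and read it out at target genes. In the mouse embryo around day 9 retinol comes from the mother through the yolk sac, retinoic acid is made mainly in trunk mesoderm, and its removal in the tailbud and parts of the head keeps those regions low in the signal. Here 7 genes of that chain were followed in Adnp knockout, heterozygous and wild-type embryos: Rbp4 (the plasma carrier of retinol), Stra6 (the membrane receptor for that carrier), Aldh1a2 (the enzyme that makes retinoic acid), Cyp26a1 (the enzyme that degrades it), Crabp1 and Crabp2 (its binding proteins in the cytoplasm) and Rarb (a nuclear receptor for it). They were taken as the probe sets whose platform annotation gave 1 gene symbol, equal to one of these names. Each gene had 1 such probe set, which makes 7 of the 12393 genes named on the arrays.

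RNA of whole C57BL/6 embryos on embryonic day 9, separated from yolk sac and amnion, was read on Affymetrix 430A mouse arrays. The groups were 2 arrays of embryos lacking ADNP (Adnp knockout), 3 of Adnp heterozygous embryos and 2 of wild-type embryos, and each array held the RNA of a pool of 2 littermates of one genotype, all labelled as mixed in sex. ADNP is a homeodomain protein of chromatin, and the study asked which genes lie downstream of it. The labels give Adnp heterozygous mice as the housed stock and genotyping of yolk sac DNA by PCR for Adnp and a neomycin resistance gene, and they do not say how litters were divided among the pools.

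All values are MAS5 signals, a brightness per probe set on a linear scale. In the deposited table every array has the same trimmed mean, 150.05, which leaves out the brightest and dimmest probe sets. Each change is therefore relative to the rest of the array. The median probe set read 55.5 to 57.4, and precision is limited by how few arrays there are. The probe set annotated to Adnp is shared with its neighbour Dpm1 and cannot check the genotype: it read 1880.2 and 1681.5 in knockout pools, 1114.7, 985.9 and 1195.8 in heterozygous pools, and 897.2 and 1025.6 in wild-type pools. The summed signal of 3 Y-linked genes was 144.8 to 207.5 in knockout pools and 97.8 to 187.5 in heterozygous pools, against 21.4 to 32.9 in wild-type pools, which stand apart although all pools are labelled mixed. Heart muscle genes, which mark the embryo proper, had a summed signal of 4839.6 to 5975.2 in knockout pools, 5879.3 to 6893.4 in heterozygous pools and 5652.5 to 7173.1 in wild-type pools. Their mean log2 signal was 7.59 to 7.87 in knockout pools, 8.20 to 8.47 in heterozygous pools and 8.18 to 8.52 in wild-type pools, without overlap of the knockout with the others. Of the 12 genes 2 fell against wild type (limma), Myl2 of the ventricle (-2.59, adjusted p = 9.35e-05) and Nppa of the chambers (-2.08, 0.000744), and 4 fell against the heterozygotes. The median difference was much smaller, -0.28 from wild type and -0.37 from the heterozygotes. From wild type 10 differences were negative and 2 positive, Myl7 (0.31) and Myh6 (0.05), and Actc1 differed by -0.17. In whole-embryo RNA fewer cells of a type and less RNA per cell cannot be told apart.

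Retinoic acid receptors bind DNA as partners of retinoid X receptors, and their best known sites are repeats of a hexamer in one direction. The RefSeq promoter windows of GRCm38.p6, which run from 250 bases before to 50 bases after a transcript start, held 10 windows for 6 of the genes, all but Crabp2. They were searched on both strands for a hexamer followed, after a spacer of any 5 bases, by a hexamer in the same direction, each being AGGTCA or else AGTTCA or else GGGTCA or else GGTTCA. Of the windows of all genes 0.0974% held such a repeat (32 of 32851), and Cyp26a1 and Rarb were the genes among the 7 that did. Repeats with a spacer of 1 or 2 bases were found in 0.222% and 0.268% of all windows and in none of the 10. The 120 bases before the start are shown for both genes because retinoic acid is known to act through these repeats, and for Rbp4, the gene with the largest difference among the 7, as a contrast. Capitals mark the repeat of 17 bases in Cyp26a1 and Rarb, which starts 32 and 53 bases before the start, and a single hexamer in Rbp4. Rbp4 has 2 windows, and the other, not printed, held 0 hexamers. In Cyp26a1 and Rbp4 the marked letters are the reverse complement of the hexamers. A match of letters is a description and not a measured binding site.
Cyp26a1 (GRCm38.p6, chr19:37697688-37697807, plus strand): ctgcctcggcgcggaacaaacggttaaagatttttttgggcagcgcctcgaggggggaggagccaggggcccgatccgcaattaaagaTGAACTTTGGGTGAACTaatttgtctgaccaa
Rarb (GRCm38.p6, chr14:16575477-16575596, minus strand): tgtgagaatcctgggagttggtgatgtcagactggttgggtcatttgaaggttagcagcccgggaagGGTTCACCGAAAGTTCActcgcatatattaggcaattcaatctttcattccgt
Rbp4 (GRCm38.p6, chr19:38125322-38125441, minus strand): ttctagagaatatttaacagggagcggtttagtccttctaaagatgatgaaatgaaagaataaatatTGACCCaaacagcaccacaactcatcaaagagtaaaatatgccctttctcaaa

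Between knockout and wild-type embryos 1 of the 7 genes passed the test and between knockout and heterozygous embryos 3 did. The retinol carrier Rbp4 was several-fold higher in the knockout in both comparisons. Against the heterozygotes Cyp26a1 was higher and Crabp1 lower, while Stra6, Aldh1a2, Crabp2 and Rarb passed in no comparison. Differences are on the scale of log2(signal + 3.8) and were tested with limma across 8019 genes, with a threshold of 0.05 on the Benjamini-Hochberg adjusted p. All 7 genes passed the filter that leaves out dim probe sets. Of all genes tested 3.32% were called between knockout and wild type (1.96% higher, 1.36% lower) and 5.86% between knockout and heterozygous (3.11% higher, 2.76% lower). The genes followed here were chosen with earlier results known, and the comparisons share the knockout arrays, so nothing is read from these counts against those shares. In the plot of signals by array the knockout arrays lie apart from the other 5 for the 3 called genes. The same held for 30.7% of all genes tested, so it adds no support to the calls.

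**Figure D1:**
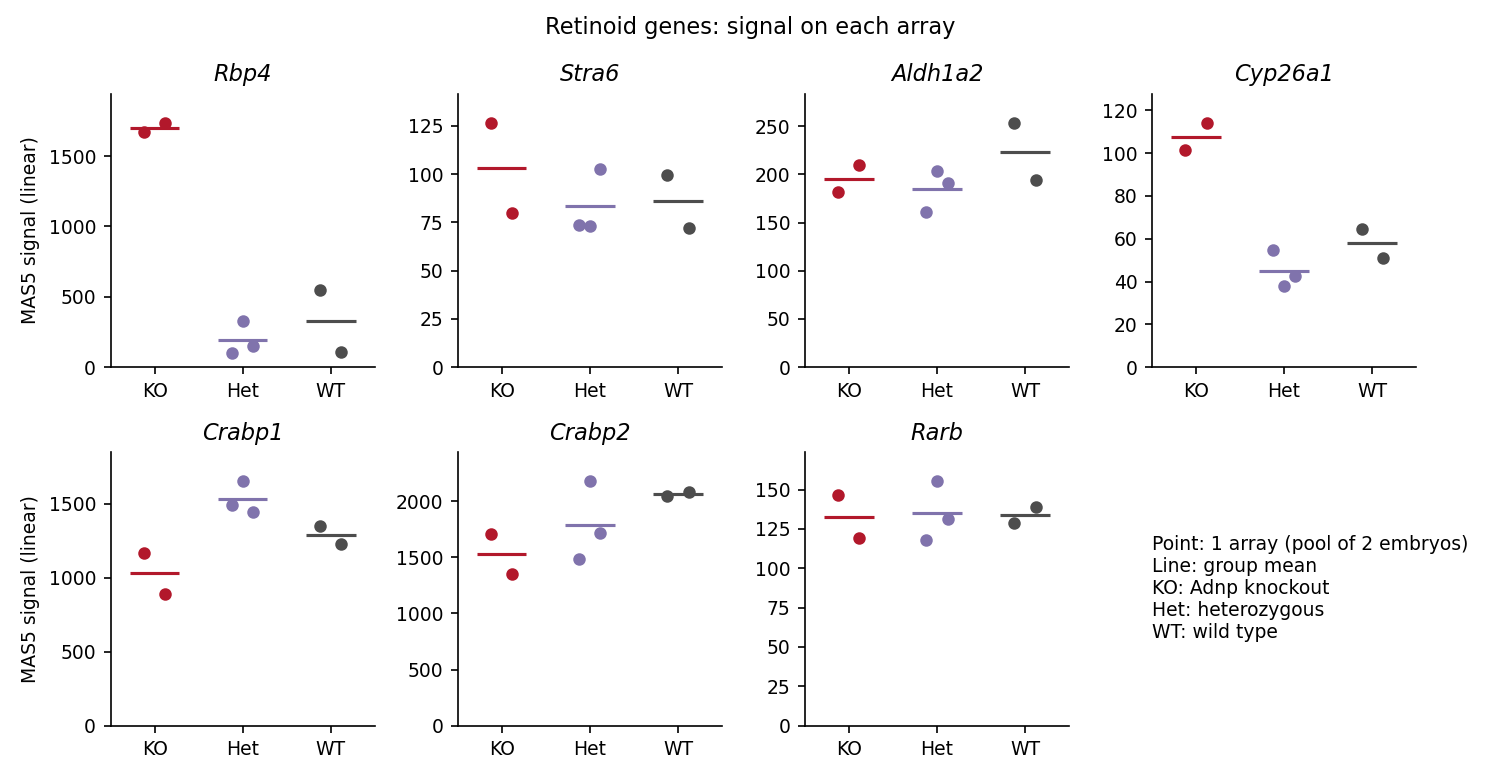
MAS5 signal on a linear axis from 0 for each of the 7 genes, with 1 point per array (a pool of 2 embryos), a line at the group mean, and the knockout (KO), heterozygous (Het) and wild-type (WT) groups from left to right. Both knockout arrays lie above the other 5 for Rbp4 and Cyp26a1 and below them for Crabp1, beside 14.2% of all genes tested above and 16.5% below.

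Rbp4 is made in the mid-gestation embryo chiefly by visceral endoderm of the yolk sac and later by liver. Its signal was 1669.3 and 1735.9 in knockout pools, 100.6, 329.8 and 151.8 in heterozygous pools, and 545.2 and 106.3 in wild-type pools. The knockout pools agreed closely and lay above all others, while the 5 other pools differed among themselves by 5.42-fold. The means were 1703 ± 47.1 in knockout (SD, n = 2), 194.1 ± 120.3 in heterozygous (n = 3) and 325.8 ± 310.3 in wild-type pools (n = 2). Rbp4 rose by 2.79 on the log2 scale against wild type (SE 0.65, limma, adjusted p = 0.0462), with a 95% interval from 1.36 to 4.23, and by 3.28 against the heterozygotes (SE 0.59, adjusted p = 0.0123; interval 1.97 to 4.59). The difference from wild type depends on which wild-type pool is used: it was 3.95 without wild-type replicate 1 (adjusted p = 0.00379) and 1.64 without wild-type replicate 2 (adjusted p = 0.251). The call against wild type was also lost without knockout replicate 1, knockout replicate 2 or heterozygous replicate 3 (adjusted p = 0.199, 0.206 and 0.0808), in an adjusted p range of 0.00379 to 0.251 over all 18 alternatives, of which 8 kept it. Against the heterozygotes it was lost without knockout replicate 1 or 2 (adjusted p = 0.0964 and 0.109) and with the replicate block (0.0969).

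The other proteins of retinol carriage were read from a list of 8 genes, 6 of them on the array under a symbol of their own and 3 bright enough to be measured. Lrp2, the endocytic receptor megalin, which takes up the retinol carrier in absorptive epithelia, rose in the knockout. It read 177.6 and 156.7 in knockout pools, 60.8, 66.3 and 58.4 in heterozygous pools, and 59.2 and 41.1 in wild-type pools, with no overlap. The rise was 1.68 against wild type (SE 0.21, limma, adjusted p = 0.00269) and 1.38 against the heterozygotes (SE 0.19, 0.00383). The first held whichever array was left out, and the second was lost without knockout replicate 1 (adjusted p = 0.0607). Ttr, transthyretin, which binds the loaded carrier in plasma, read 1936.8 and 2653.5 in knockout pools, 44.7, 431.3 and 86.3 in heterozygous pools, and 665.5 and 60.8 in wild-type pools. Its order across the 5 heterozygous and wild-type pools was the same as that of Rbp4. Ttr rose by 4.20 against the heterozygotes (SE 0.96, limma, adjusted p = 0.034), and its difference of 3.45 from wild type did not pass (adjusted p = 0.109). The call against the heterozygotes was lost without any one knockout array or without heterozygous replicate 1 or 3 (adjusted p = 0.0716 to 0.199 in these fits). It was also lost with no brightness filter (0.075), no intensity trend (0.0834), the replicate block (0.158) and every probe set tested on its own (0.0508), so that 9 of 17 alternatives kept it. Without wild-type replicate 1 the difference from wild type was 5.14 (adjusted p = 0.022). Fabp5, a fatty acid carrier that also binds retinoic acid, had a difference of -0.36 from wild type (limma, adjusted p = 0.116) and of -0.37 from the heterozygotes (0.0663).

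Markers of visceral endoderm moved with these carriers. Of 23 such genes, Rbp4 and Ttr not among them, 20 had a probe set, 15 were measured, 9 rose against wild type and 11 against the heterozygotes, and 0 fell. Their median difference from wild type was 2.66, beside -0.01 for all genes tested. The brightness filter averages all 7 arrays, so markers dim in the other pools could pass it through their knockout signal. Apob, for example, read 246.6 and 317.4 in knockout pools and 15.9 to 49.1 in the other 5. The counts and the median of the measured markers therefore favour genes high in the knockout. The summed signal of the 20 genes was 8828.4 and 10545.2 in knockout pools. It was 930.2, 1544.4 and 1186.2 in heterozygous pools, and 2361.7 and 858.9 in wild-type pools. Among the 5 heterozygous and wild-type pools, wild-type replicate 1 and heterozygous replicate 2 were the highest in this sum, as in Rbp4 and Ttr. The 5 genes whose log2 signals followed Rbp4 most closely over the 7 arrays were Afp (alpha-fetoprotein, Pearson's r = 0.995), Higd1a (0.99), Ttr (0.99), Apom (an apolipoprotein, 0.989) and Ihh (a hedgehog ligand, 0.988). These values describe likeness over arrays of 3 genotypes, where any gene that sets the knockout apart is alike. Of 10 trophoblast markers 3 were measured and 1 rose in each comparison with the knockout, with a summed signal of 571.4 to 668.4 in knockout pools, 315.8 to 424.7 in heterozygous pools and 342.0 to 429.1 in wild-type pools. Of 7 decidua markers 5 were measured and 1 fell in each, with 297.2 to 393.6 in knockout pools, 272.6 to 1077.6 in heterozygous pools and 269.6 to 275.7 in wild-type pools. The highest sum is that of heterozygous replicate 1, where the marker Prl8a2 read 828.6, against 37.6 and 27.4 in heterozygous replicates 2 and 3. The part of visceral endoderm, trophoblast or decidua content in the differences of Rbp4, Ttr and Lrp2 was not tested.

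**Figure D2:**
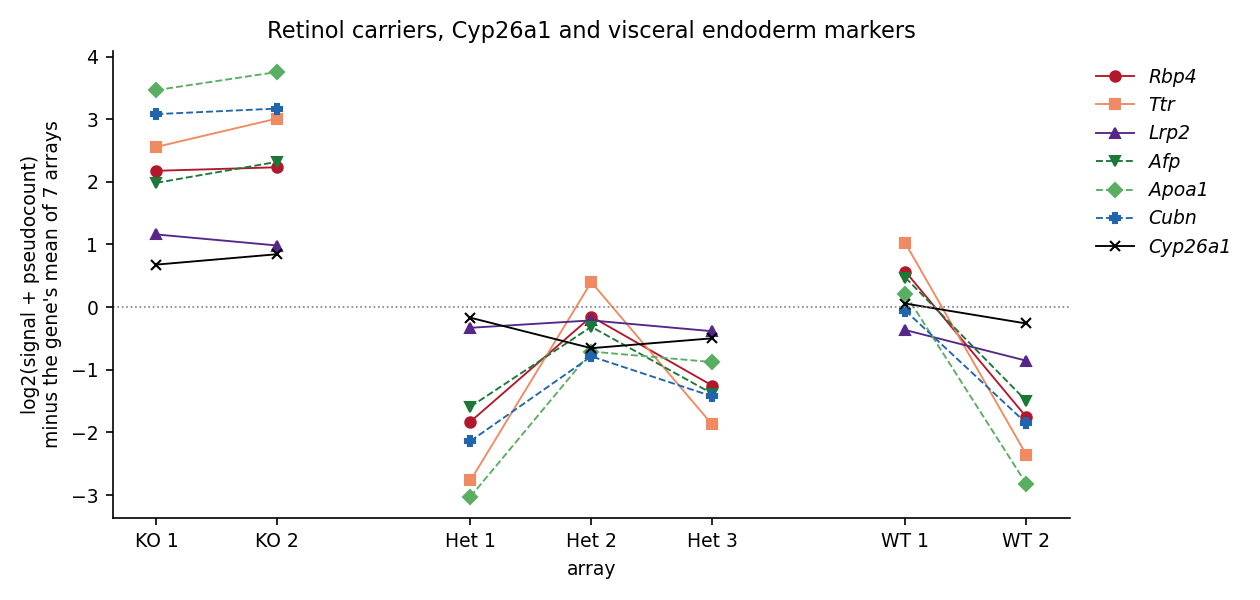
Log2(signal + pseudocount) minus each gene's mean over the 7 arrays, for the retinol carriers Rbp4 and Ttr, the receptor Lrp2, the enzyme Cyp26a1 (solid lines) and the visceral endoderm markers Afp, Apoa1 and Cubn (dashed lines). Rbp4, Ttr and the 3 markers are higher in wild-type replicate 1 and heterozygous replicate 2 than in the other heterozygous and wild-type pools. Among these 5 pools Cyp26a1 is highest in wild-type replicate 1 and lowest in heterozygous replicate 2.

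Stra6, the receptor through which cells take up retinol from its carrier, did not pass. It read 126.6 and 80.1 in knockout pools, 73.8, 73.3 and 102.8 in heterozygous pools, and 99.5 and 72.3 in wild-type pools, with overlap between all groups. The difference from wild type was 0.24 (limma, adjusted p = 0.685), with a 95% interval from -0.35 to 0.82, and that from the heterozygotes 0.28 (0.537; -0.25 to 0.82). Knockout replicate 1 set the sign: without it the differences were -0.08 from wild type and -0.04 from the heterozygotes. The promoter windows of Stra6 lie at 4 transcript starts, and none held the repeat. Tmem203 (r = 0.953) and Sh3gl1 (0.947) were the genes most like Stra6 over the 7 arrays, followed by Abi1 (0.936), Gpsm3 (0.927) and Prkcb (0.927).

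Aldh1a2, retinaldehyde dehydrogenase of somites and trunk mesoderm, is the main source of retinoic acid at this stage. Its signal was 181.6 and 209.8 in knockout pools, 160.5, 203.4 and 191.3 in heterozygous pools, and 253.5 and 193.9 in wild-type pools, and the groups overlapped. The knockout differed by -0.18 from wild type (limma, adjusted p = 0.633; 95% interval -0.57 to 0.21) and by 0.08 from the heterozygotes (0.807; -0.27 to 0.44). Of 7 measured somite and paraxial mesoderm markers 2 fell against wild type, Pax1 of the sclerotome (-2.42, limma, adjusted p = 0.0018) and Meox1 of the somite (-1.23, 0.00622), and 4 fell against the heterozygotes. Their median difference from wild type was -0.996, and the part of somite content in the values of Aldh1a2 was not tested. Their summed signal was 539.7 to 600.9 in knockout pools, 839.5 to 1000.4 in heterozygous pools and 887.7 to 1003.4 in wild-type pools. Over the 7 arrays Aldh1a2 was most like Uros (r = 0.969), Ireb2 (0.95), Etaa1 (0.941), Retn (0.941) and Car3 (0.932).

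Other enzymes that oxidise or reduce retinoids came from a list of 19 genes, 16 of them on the array and 8 measured. None of the 8 passed in any comparison (limma), and their median difference from wild type was 0.04. Dhrs3, which turns retinaldehyde back to retinol and is itself induced by retinoic acid, had the largest difference, 0.42 (limma, adjusted p = 0.472), with a signal of 40.6 ± 3.32 in knockout pools (SD, n = 2) and 30.15 ± 10.3 in wild-type pools (n = 2). Rdh10, which makes retinaldehyde from retinol, differed by -0.36 (limma, adjusted p = 0.257). Rdh11, another retinol dehydrogenase, differed by 0.24 (0.627) and Adh1, an alcohol dehydrogenase, by -0.21 (0.741). The relatives Cyp26b1 and Cyp26c1 had no probe set with 1 symbol and were not analysed here.

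Cyp26a1 hydroxylates retinoic acid and so removes it, and its own transcription is induced by retinoic acid. It read 101.3 and 114.1 in knockout pools, 54.6, 37.9 and 42.7 in heterozygous pools, and 64.5 and 51.0 in wild-type pools. Both knockout pools lay above all 5 others, and the heterozygous and wild-type pools overlapped. Cyp26a1 rose by 1.20 on the log2 scale against the heterozygotes (SE 0.21, limma, adjusted p = 0.0105; 95% interval 0.73 to 1.67), which is 2.30-fold. Against wild type the difference was 0.86 (SE 0.23, limma, adjusted p = 0.0719; 95% interval 0.35 to 1.38) and did not pass. The heterozygotes differed from wild type by -0.34 (limma, adjusted p = 0.999), so the comparisons are not shown to differ. With the heterozygous and wild-type arrays taken as 1 control group, an alternative chosen after seeing the data, the rise was 1.07 (adjusted p = 0.00983, where 9.13% of all genes are called, in a range of 0.00983 to 0.406 over all 17 alternatives for the difference from wild type). The call against the heterozygotes was lost without knockout replicate 1 or 2 (adjusted p = 0.0758 and 0.121) and with the replicate block (0.0753).

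The expression domain best known for Cyp26a1 at this stage is the tailbud. Of 11 tailbud markers 10 had a probe set and only 3 were measured (Wnt3a, Dll1 and Fgf4). Of these 0 passed in either comparison with the knockout (limma), with median differences of -0.12 from wild type and -0.06 from the heterozygotes. The rest were too dim for the test. Among them Cdx2, Cdx4, Hes7 and Nkx1-2 read higher in both knockout pools than in all 5 others, while Tbx6, Msgn1 and Evx1 overlapped. Cdx2 read 69 and 98.3 in knockout pools and at most 26.6 in the other 5. Of the 8019 genes tested 14.2% lay above in this way, but that share leaves out dim genes such as these. Cdx2 is also on the trophoblast list and adds to the summed signal of both lists. The summed signal of the 10 markers was 556.3 to 742.7 in knockout pools, 514.4 to 593.5 in heterozygous pools and 488.3 to 538.1 in wild-type pools. The visceral endoderm sum given above also moved with Cyp26a1 between genotypes. Among the 5 heterozygous and wild-type pools, wild-type replicate 1 was highest in both Cyp26a1 and that sum, and heterozygous replicate 2 was lowest in Cyp26a1 and had the highest sum of the heterozygous pools. The gene most like Cyp26a1 over the 7 arrays was Serpinf2 (a plasma protease inhibitor, r = 0.989), followed by Pnpla7 (0.982), Sri (0.976), Lrp10 (0.97) and Klhl24 (0.969). The part of either cell population in the difference of Cyp26a1 was not tested.

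Cyp26a1 and Rbp4 lie on chromosome 19 with 3 protein-coding genes between them in the RefSeq table of GRCm38.p6: Myof, Cep55 and Ffar4. Only Cep55, a protein of cell division, was measured, and it fell against the heterozygotes (-0.62, limma, adjusted p = 0.0185) and differed from wild type by -0.55 (0.054). The neighbour on the other side of Cyp26c1, Exoc6, a subunit of the exocyst, rose by 0.66 against wild type (limma, adjusted p = 0.0422) and by 0.69 against the heterozygotes (0.0185). Exoc6 lies outside the stretch between Cyp26a1 and Rbp4. These neighbours were named after their values were seen.

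Crabp1 and Crabp2 bind retinoic acid in the cytoplasm. Crabp1, a marker of hindbrain and migrating neural crest, is linked to breakdown of the acid, and Crabp2 hands it to the nuclear receptors. Crabp1 read 1167.7 and 891.6 in knockout pools, 1489.8, 1650.4 and 1443.1 in heterozygous pools, and 1349.0 and 1230.2 in wild-type pools. Every knockout pool was below every other pool, and the heterozygous pools all lay above the wild-type pools. Crabp1 fell by 0.58 against the heterozygotes (SE 0.12, limma, adjusted p = 0.0253; 95% interval -0.85 to -0.30), and its difference of -0.34 from wild type did not pass (SE 0.14, adjusted p = 0.214; -0.64 to -0.04). The call was lost without knockout replicate 2 (difference -0.38, adjusted p = 0.222), without heterozygous replicate 3 (-0.62, 0.0516) and with the replicate block (-0.62, 0.0948). It was also lost with no brightness filter (adjusted p = 0.0536) and with no intensity trend (0.0818), so that 12 of 17 alternatives kept it. In the single group of 5 controls the difference was -0.48 (adjusted p = 0.0393, in a range of 0.0393 to 0.73 over all 18 alternatives for the difference from wild type). Of 8 measured neural crest markers besides Crabp1, 1 fell in both comparisons, Twist1, a transcription factor of cranial mesenchyme, with -0.95 against wild type (limma, adjusted p = 0.00657) and -0.69 against the heterozygotes (0.0138). In each comparison 4 of the 8 markers had positive and 4 had negative differences. The medians were -0.07 from wild type and 0.007 from the heterozygotes. The summed signal of the 10 neural crest markers with a probe set was 1097.2 to 1191.3 in knockout pools, 1157.8 to 1332.5 in heterozygous pools and 1273.8 to 1415.6 in wild-type pools. In this sum the knockout pools lay below the wild-type pools and overlapped the heterozygous pools. Hindbrain markers had 0 of 7 past the test in either comparison (limma), with a median of 0.38 against wild type, and a summed signal of 546.6 to 613.0 in knockout pools, 461.0 to 479.7 in heterozygous pools and 406.1 to 461.4 in wild-type pools. The part of these populations in the difference of Crabp1 was not tested. Most like Crabp1 over the 7 arrays were Jam2 (r = 0.989), Exosc1 (0.987), Ppp4r1 (0.986), Prps2 (0.983) and Pgls (0.973).

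Crabp2 did not pass in any comparison. It read 1709.8 and 1351.0 in knockout pools, 1484.4, 2175.7 and 1711.9 in heterozygous pools, and 2041.0 and 2082.6 in wild-type pools. Both knockout pools lay below both wild-type pools, whereas the heterozygous pools spanned almost the whole range. The difference was -0.44 from wild type (SE 0.17, limma, adjusted p = 0.193; 95% interval -0.81 to -0.06) and -0.22 from the heterozygotes (SE 0.15, adjusted p = 0.446; -0.56 to 0.12). Its closest genes over the 7 arrays were Cript (r = 0.954), Emg1 (0.949), Mlxip (0.948), Anapc4 (0.941) and Ubl3 (0.938). Between knockout and wild type 4 of the 7 genes had arrays that did not overlap (Rbp4 and Cyp26a1 above, Crabp1 and Crabp2 below), beside 52.9% of all genes tested (24.7% above, 28.3% below), so that lack of overlap carries little information with 2 arrays a group. Between knockout and heterozygous 3 did not overlap (Rbp4 and Cyp26a1 above, Crabp1 below), beside 40.1% (18.3% above, 21.7% below). Against all 5 other arrays the knockout arrays did not overlap for 3 of the 7 genes, beside 30.7% of all genes tested (14.2% above, 16.5% below).

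Rarb, the retinoic acid receptor gene whose promoter repeat is shown above, is induced by retinoic acid in many cell types. Its signal was 146.2 and 119.1 in knockout pools, 118.0, 155.2 and 131.1 in heterozygous pools, and 128.9 and 138.6 in wild-type pools, all within 1.32-fold of each other. The group means were 132.7 ± 19.2 in knockout (SD, n = 2), 134.8 ± 18.9 in heterozygous (n = 3) and 133.8 ± 6.86 in wild-type pools (n = 2). The knockout differed by -0.02 from wild type (limma, adjusted p = 0.975), with a 95% interval from -0.41 to 0.38, and by -0.02 from the heterozygotes (0.953; -0.38 to 0.34). The interval against wild type corresponds to a ratio between 0.752 and 1.30. The profile of Rarb over the 7 arrays was closest to those of Mylk (r = 0.987), Gm16136 (0.987), Tpm2 (0.953), Ift140 (0.936) and Rab2a (0.933). Of the 31 genes with the repeat in a promoter window, 3 were measured: Cyp26a1, Rarb and Hbb-y, an embryonic globin, whose difference from the heterozygotes was 0.23 (limma, adjusted p = 0.458). Of these 3, Cyp26a1 passed in 1 comparison with the knockout and the others in none.

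**Figure D3:**
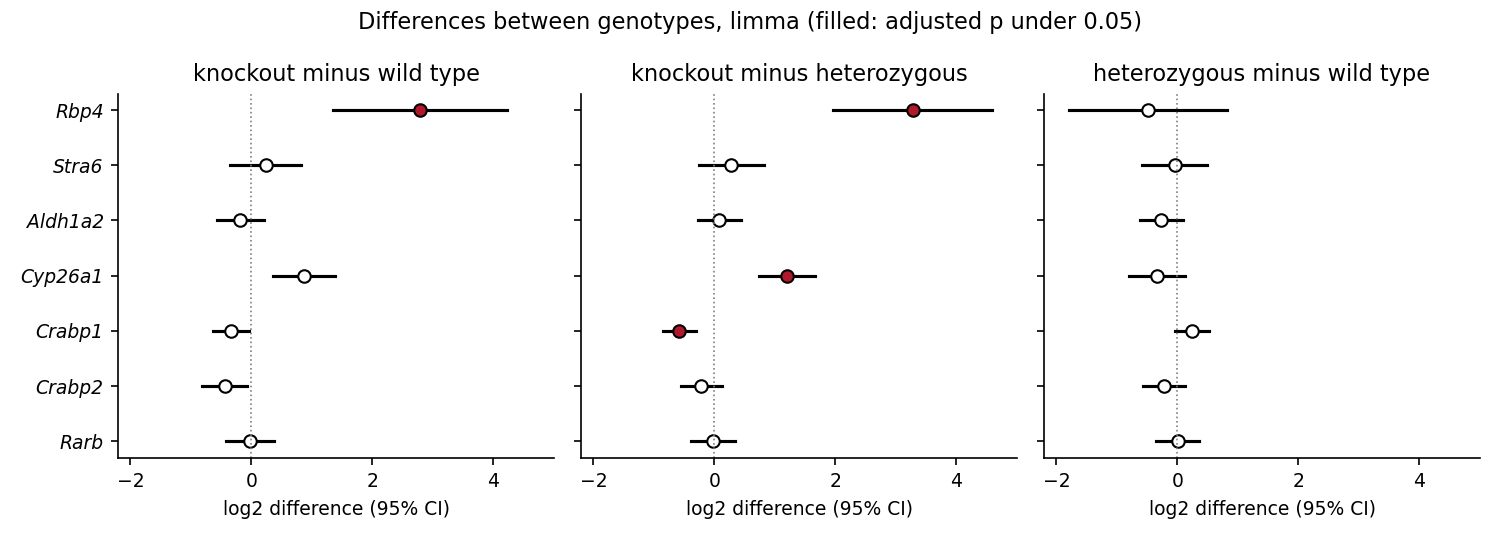
Log2 differences (points) with 95% confidence intervals from limma (lines, not adjusted for the number of genes) for the 7 genes in each comparison, filled where the adjusted p is under 0.05. Rbp4 lies far to the right with the widest interval in both comparisons with the knockout, and all 7 intervals cross 0 between heterozygous and wild-type embryos.

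Between heterozygous and wild-type embryos none of the 7 genes passed. With limma 0 of 8019 genes passed (0%), and at an unadjusted p under 0.05 there were 284 genes (3.54%), none of them among the 7. The heterozygous arrays did not overlap the wild-type arrays for 1 of the 7, Crabp1, beside 17.4% of all genes (9.12% above, 8.27% below). Crabp1 had the difference nearest to the threshold, 0.24 (unadjusted p = 0.0764; 95% interval -0.03 to 0.52). The others ran from -0.49 for Rbp4 (interval -1.80 to 0.83) to 0.00 for Rarb (-0.36 to 0.36). These intervals leave room for a change of Rbp4 by a factor of 0.288 to 1.77, and for Rarb of 0.781 to 1.28. The Y-linked signal moved between the same groups, and between knockout and wild type, and its part in any difference was not tested.

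The receptors and cofactors of retinoid signalling and the genes that respond to it were read from lists, beside 3.32% of all genes called against wild type and 5.86% against the heterozygotes. Of 13 receptors and cofactors 8 were measured and 0 passed in any comparison (limma), with a median of -0.26 against wild type. Ncoa1, a coactivator of nuclear receptors, had the largest difference, -0.58 (limma, adjusted p = 0.257). Nrip1, a corepressor induced by retinoic acid, differed by 0.37 (0.416), Rxra, the common partner of retinoic acid receptors, by -0.36 (0.41) and Med1, a Mediator subunit, by -0.31 (0.451). Of 28 responsive genes 18 were measured, 1 fell and 17 did not pass against wild type, and the same count held against the heterozygotes. The one that fell was Nr2f1, an orphan receptor of neural and mesenchymal cells that retinoic acid induces. It read 262.2 and 268.4 in knockout pools, 411.8, 530.9 and 415.1 in heterozygous pools, and 403.1 and 474.5 in wild-type pools, with no overlap. Nr2f1 fell by 0.71 against wild type (SE 0.15, limma, adjusted p = 0.0314) and by 0.75 against the heterozygotes (SE 0.14, 0.0134). Both calls were lost without knockout replicate 1 or 2 (adjusted p = 0.107 to 0.181), the first also without wild-type replicate 2 (0.263), and with the replicate block they had adjusted p of 0.0707 and 0.0506. The call against wild type was also lost with no brightness filter (adjusted p = 0.0566) and with no intensity trend (0.0762), so that 12 of 18 alternatives kept it. The differences from wild type were -0.62 for Hoxa5 of the cervical trunk (limma, adjusted p = 0.317), -0.55 for Tbx1 of pharyngeal mesoderm (0.156) and 0.52 for Gata4 of heart and endoderm (0.0971). Of the 18 responsive genes 11 differences from wild type were negative and 7 positive, and from the heterozygotes 13 and 5. The summed signal of the 23 with a probe set was 2967.9 to 3002.4 in knockout pools, 3148.3 to 3572.7 in heterozygous pools and 3325.3 to 3338.1 in wild-type pools.

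Over these 4 lists 37 of 68 genes were measured, and 2 of them passed against wild type (5.41%, beside 3.32% of all genes) and 3 against the heterozygotes (8.11%, beside 5.86%). The median difference from wild type was -0.21, beside -0.01 for all genes. In a fit with no brightness filter, which calls 1.3% of genes against wild type and 2.47% against the heterozygotes, 19 further genes of the lists could be read. Among these Bhlhe40, a transcriptional repressor that retinoic acid and low oxygen induce, read 107.2 and 95.6 in knockout pools, 11.4, 3.9 and 3.2 in heterozygous pools, and 1.8 and 3.7 in wild-type pools. It rose by 4.02 against wild type (SE 0.44, limma, adjusted p = 0.00565) and by 3.49 against the heterozygotes (SE 0.40, 0.00479). Control signals at the level of the pseudocount leave the size of this rise uncertain. Bco2, a carotenoid-cleaving oxygenase, fell against the heterozygotes (-1.82, SE 0.35, limma, adjusted p = 0.0341), with 2.8 and 3.2 in knockout pools against 17.1, 20.8 and 23.3 in heterozygous pools, and its wild-type pools read 5.7 and 13.4. Knockout signals below the pseudocount leave the size of this difference uncertain too. Both were named after their values were seen.

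**Figure D4:**
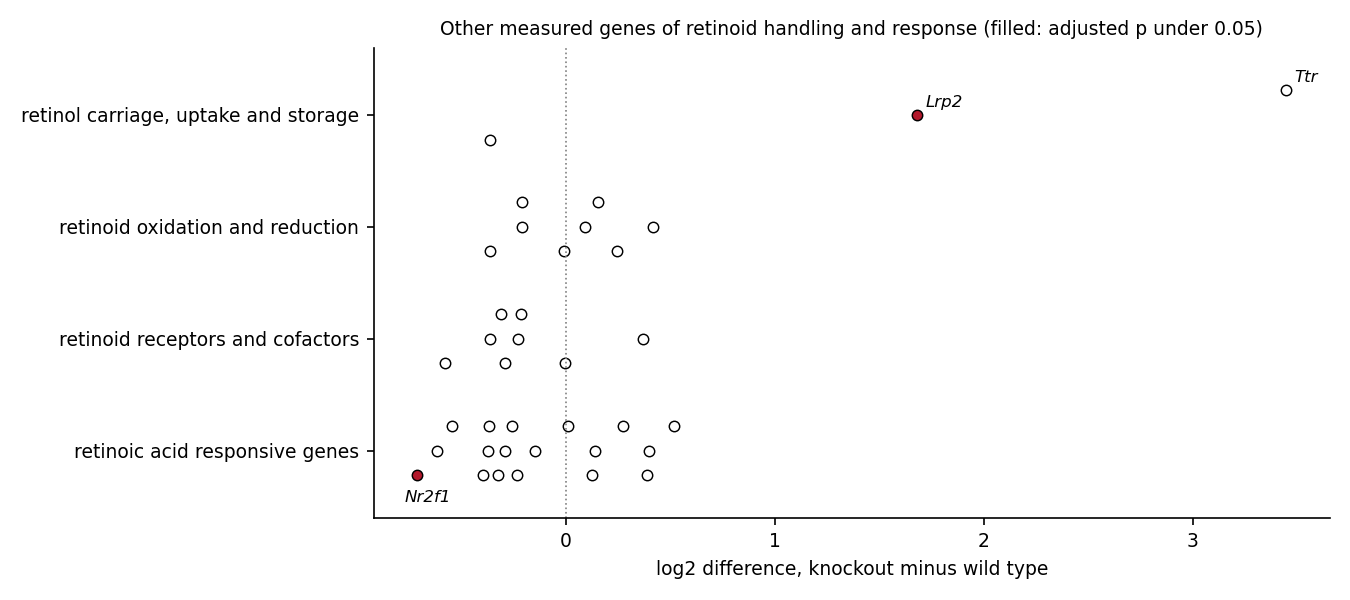
Log2 difference, knockout minus wild type, for the 37 measured genes of 4 lists of retinoid handling and response (1 point per gene, spread vertically within each list for legibility), filled where limma's adjusted p is under 0.05. Lrp2 and Nr2f1 are the filled points, Ttr lies farthest to the right without passing, and the remaining points lie between -0.62 and 0.52.

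**Figure D5:**
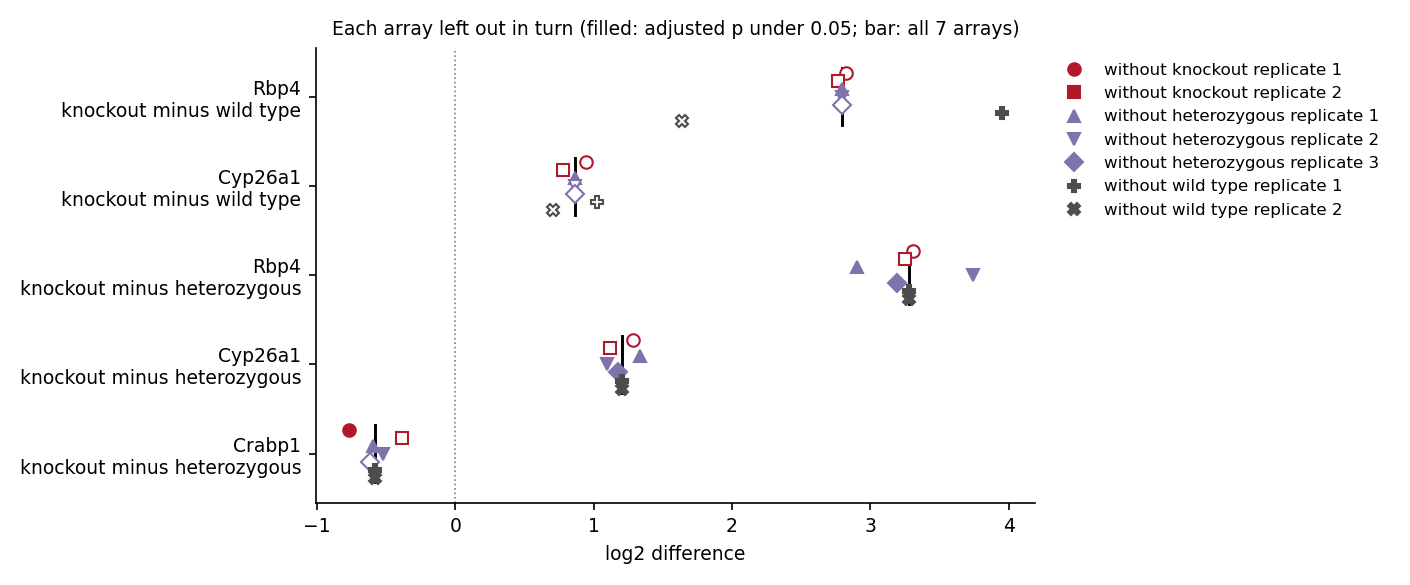
Log2 differences of Rbp4, Cyp26a1 and Crabp1 with each array left out in turn (1 symbol per array left out, coloured by its group, filled where limma's adjusted p is under 0.05) and with all 7 arrays (black bar). The difference of Rbp4 from wild type runs from 1.64 to 3.95, that from the heterozygotes from 2.90 to 3.74, and no symbol crosses 0.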

How the data were processed

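Per the submitters' processing notes, the authors used MAS5, and the deposited table gives linear intensities per probe set. The sources used here give neither its scaling target nor its software version. Of 22690 probe sets 64 were array controls, and 20380 had 1 gene symbol in the platform annotation. MAS5 is noisy for dim probe sets.

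All tests used log2(signal + 3.8), a pseudocount at the 10th percentile of the table, which understates changes of dim genes. Each gene was its brightest probe set, and genes with a mean under the 40th percentile of probe sets were left out, leaving 8019. Genotypes were compared with limma's moderated test, with an intensity-dependent prior (limma 3.58.1, R 4.3.3) and all 7 arrays fitted together, two-sided, with Benjamini-Hochberg adjustment over all 8019 genes. Confidence intervals are limma's and unadjusted. The script was tested on simulated data.

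The 7 genes and all lists were chosen with earlier results of these data known. Other genes were named by rule: those past the threshold and up to 4 with the largest difference from wild type in each list of retinoid genes, called markers beside a result, and the 5 genes most correlated with a member. Alternatives changed the replicate block, the brightness filter, the pseudocount, the choice of probe set, quantile scaling, array weighting, the trend or the groups fitted, or left out 1 array. What the replicate numbers mark is not stated, and they were not taken as pairs outside the replicate block. Deviations of same-numbered knockout and wild-type pools correlated at -0.05. Within each of these groups the deviations mirror each other, so this value cannot show whether the numbers mark pairs. The sources do not say whether pools came from separate litters, so p-values measure the spread between pools.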

Additional observations from a re-analysis of the deposited data

How the results depend on the processing

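With 2 or 3 pools a group, single arrays decide several calls. Between knockout and wild type the number of called genes among the 7 was 1, and it was 0 with no filter, quantile scaling, no intensity trend, only the 2 groups in the fit, the replicate block or every probe set tested on its own, 2 with array weights and 3 with the heterozygous and wild-type arrays as 1 control group; it ranged from 0 to 2 with an array left out. All genes called, 266, became 161 with no filter, 174 without the trend, 514 with array weights, 72 with the replicate block and 732 with 1 control group, and ranged from 36 to 417 with an array left out. Between knockout and heterozygous the 3 called genes became 0 with the replicate block, 2 with no filter, 2 without the trend and 2 with a filter at the 60th percentile, which leaves Cyp26a1 out, and ranged from 0 to 3 with an array left out. All genes called there, 470, became 306 with no filter, 262 without the trend and 76 with the replicate block, and ranged from 67 to 545. Where 1 array of a group remained, it was assumed to vary like the other groups. What the replicate numbers mark is not stated. Same-numbered heterozygous and wild-type pools deviated in opposite directions (correlations -0.29 and -0.28). In a group of 2 pools the deviations mirror each other, so these are not independent values and cannot show whether the numbers mark litters. The cause of the shifts in the number of called genes was not tested.

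No result that passed with all arrays changed sign. Of results that did not pass, 10 did in at least 1 alternative. With quantile scaling Rarb had differences of 0.0065 from wild type and 0.011 from the heterozygotes, and of -0.0041 between heterozygous and wild type, and with array weights Stra6 had 0.020 between heterozygous and wild type. With an array left out the differences between knockout and wild type ran from -0.080 to 0.56 for Stra6, -0.37 to 0.0095 for Aldh1a2, -0.16 to 0.13 for Rarb and -0.0059 to 0.49 for Rdh11. Those between knockout and heterozygous ran from -0.037 to 0.60 for Stra6, -0.020 to 0.18 for Aldh1a2 and -0.16 to 0.12 for Rarb. Those between heterozygous and wild type ran from -1.64 to 0.67 for Rbp4, -0.26 to 0.18 for Stra6 and -0.10 to 0.091 for Rarb.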
